A study of Mus musculus with 8 samples.

Results

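Nitric oxide synthases and the genes that regulate them were followed in left ventricular RNA from mice fed a high-fat diet with a synthase inhibitor and from mice on normal chow. The 10 genes were chosen by name: the synthases Nos1, Nos2 and Nos3, the cofactor enzyme Gch1, the methylarginine hydrolases Ddah1 and Ddah2, the arginases Arg1 and Arg2, and the caveolins Cav1 and Cav3. All 10 have a row among the 41096 genes of the count table. The HFD-LNAME group held 4 libraries from mice given ad libitum a high-fat diet with 0.5% L-NAME (N(ω)-nitro-L-arginine methyl ester) for 9 weeks from 12 weeks of age, and the Normal Chow group held 4 libraries from mice of the same starting age on chow. Fat and inhibitor were given together, so their separate contributions cannot be told apart. The labels write the strain of both groups as C57BL/5NJ. The series design speaks of cohorts of both sexes with or without Nnt, but the labels of these libraries carry neither sex nor Nnt genotype.

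Nitric oxide synthases make nitric oxide and citrulline from L-arginine, and need tetrahydrobiopterin, heme, flavins and calmodulin to do so. Nos3 is the endothelial synthase of vessels and endocardium, Nos1 the neuronal isoform that is also found in cardiomyocytes and cardiac nerves, and Nos2 the isoform induced by inflammatory signals. L-NAME is an arginine analogue that blocks the enzymes, and its use with a high-fat diet is a mouse model of heart failure with preserved ejection fraction. It acts on the proteins, whereas the libraries measure their transcripts. Around the synthases stand enzymes that supply the cofactor, that break down the natural inhibitor asymmetric dimethylarginine, that compete for arginine, and membrane scaffolds that hold the enzyme in check.

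Total counts were 31522074 to 41047658 in HFD-LNAME libraries and 41852705 to 52053633 in Normal Chow libraries, so every HFD-LNAME library was shallower than every chow library (exact permutation test, two-sided, p = 0.0286, n = 4 each, the smallest p that 4 against 4 allows). Markers of cardiomyocytes, summed over 9 genes, stood at 76930 to 99220 CPM (counts divided by the scaled library total in units of 1e6) in HFD-LNAME and 87610 to 103600 CPM in Normal Chow. Of the 9, 3 (Tnnt2, Actc1 and Myl3) were lower and 0 higher at an unadjusted edgeR p under 0.05. Over all genes tested 4.54% were lower and 5.02% higher. Tnnt2 was lower without overlap between the groups, as was the case for 3.24% of all genes. Atrial markers, summed over 8 genes, ranged from 189 to 4144 CPM in HFD-LNAME and from 170 to 2187 CPM in Normal Chow, at 189, 170 and 334 CPM in HFD-LNAME 1 and Normal Chow 2 and 4 and at 1079 CPM or more in the other 5 libraries. Of the 8 atrial markers, 1 (Nr2f2) was higher and 0 lower at an unadjusted edgeR p under 0.05, against 5.02% and 4.54% of all genes. Nr2f2 averaged 17.2 ± 1.24 CPM in HFD-LNAME and 11.6 ± 1.30 CPM in Normal Chow (SD, n = 4 each). It did not overlap, as was the case in this direction for 2.74% of all genes. Adipocyte markers, summed over 10 genes, ranged from 498 to 819 CPM in HFD-LNAME and from 499 to 616 CPM in Normal Chow. Most of this sum was Fabp4, which averaged 574 CPM in HFD-LNAME and 507 CPM in Normal Chow. Adipoq averaged 2.81 and 0.477 CPM, so the sum says little about such low markers. Of the 8 adipocyte markers tested, 6 (Adipoq, Plin1, Cidec, Cidea, Lep and Cfd) were higher at an unadjusted edgeR p under 0.05, against 5.02% of all genes. Cfd and Cidea did not overlap, as was the case in this direction for 2.74% of all genes. The adipocyte gene Ucp1, which was not tested, had 487 and 166 counts in HFD-LNAME 2 and 3, 0 in HFD-LNAME 1 and 4, and 0 to 14 in Normal Chow. Normal Chow 4 had 26.1 CPM of 5 summed hepatocyte markers, against 0.659 to 7.46 CPM in HFD-LNAME and 0.546 to 1.54 CPM in the other chow libraries. The same library was the lowest of its group for 5 of the 8 tested genes (Nos1, Nos2, Gch1, Ddah1 and Cav1) and the highest for 0. The part of adipocyte, atrial or liver transcripts and of the cardiomyocyte markers in the results below was not tested, beyond the marker ratios, the values with a marker score and those without single libraries given beside a gene.

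Levels were first put in order per length, as CPM per kilobase of merged exons in the GENCODE mouse annotation. Cav1, the main structural protein of caveolae in endothelium, led with 57.3 ± 3.45 CPM per kilobase in HFD-LNAME and 54.6 ± 8.63 in Normal Chow (SD, n = 4 each), followed by the muscle caveolin Cav3 with 38.7 ± 4.55 and 42.5 ± 4.23. Next were Ddah2 (11.4 ± 1.97 in HFD-LNAME and 10.9 ± 0.474 in Normal Chow) and Nos3 (9.88 ± 1.33 and 8.65 ± 0.242). Ddah1 had 2.40 ± 0.276 CPM per kilobase in HFD-LNAME and 2.74 ± 0.867 in Normal Chow, Nos2 1.89 ± 0.245 and 2.15 ± 0.164, and Gch1 1.43 ± 0.0493 and 1.23 ± 0.275. Nos1 was far below these at 0.0312 ± 0.0144 in HFD-LNAME and 0.0771 ± 0.0367 in Normal Chow. Over all 8 libraries the ranges of neighbours in this order overlapped for Cav1 and Cav3, for Ddah2 and Nos3, for Ddah1 and Nos2, and for Nos2 and Gch1. The lengths come from the C57BL/6J annotation, while the counts use rows of the C57BL/6NJ annotation.

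**Figure D1:**
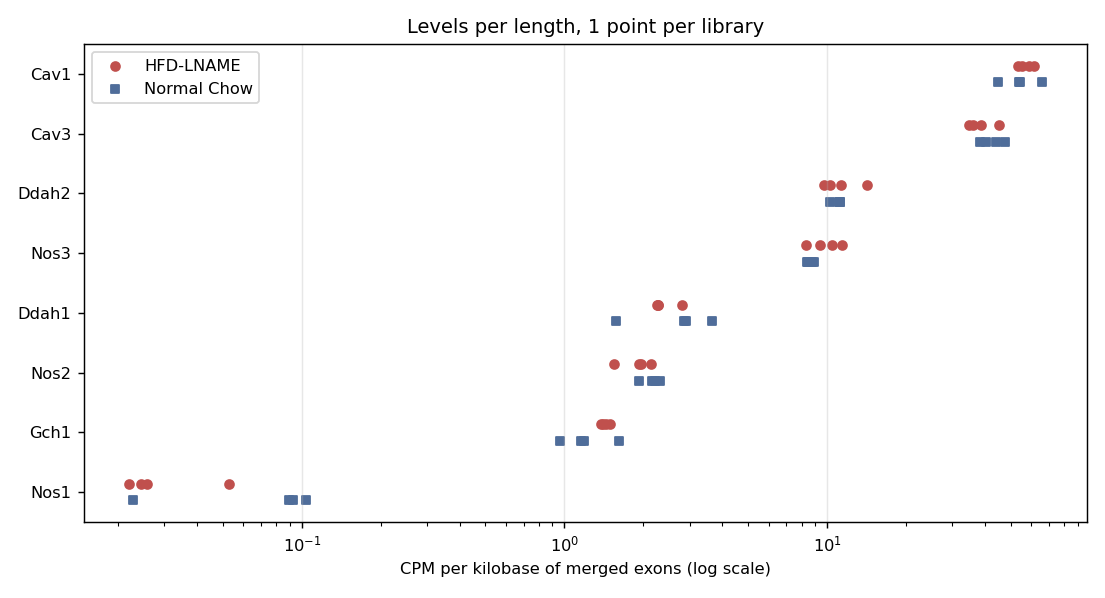
Level of each of 8 genes in CPM per kilobase of merged exons (log axis), with 1 point per library, circles for HFD-LNAME and squares for Normal Chow. Nos3 lies above Nos2 and Nos2 above Nos1 in every library, and Nos1 spans 0.0221 to 0.104 CPM per kilobase.

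The comparison of HFD-LNAME with Normal Chow asked whether transcripts of the nitric oxide system differ after weeks of a diet that blocks its enzymes. None of the 10 genes passed. With edgeR's quasi-likelihood test, 0 of the 8 genes that passed the low-count filter had a Benjamini-Hochberg adjusted p under 0.05, against 0.0134% of the 14875 genes tested. At an unadjusted p under 0.05 edgeR also gave 0, against 9.56% of all genes. DESeq2 and limma-voom each called 0 of the 8, against 1.11% and 0% of all genes. At an unadjusted p under 0.05 DESeq2 gave 1 (Nos1), against 10.4% of all genes, and limma-voom gave 0, against 9.79%. Of the 8, 4 had a log2 fold change above 0 and 4 below, with a median of -0.04, and over all genes tested the median was 0.0024. In none of the 8 did the groups separate, whereas 5.98% of all genes had groups that did not overlap. For Nos2, Nos3, Ddah2, Cav1 and Cav3 the 95% intervals of the fold change lay between 0.712 and 1.33, for Gch1 and Ddah1 between 0.628 and 1.49, and for Nos1 between 0.165 and 1.02.

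**Figure D2:**
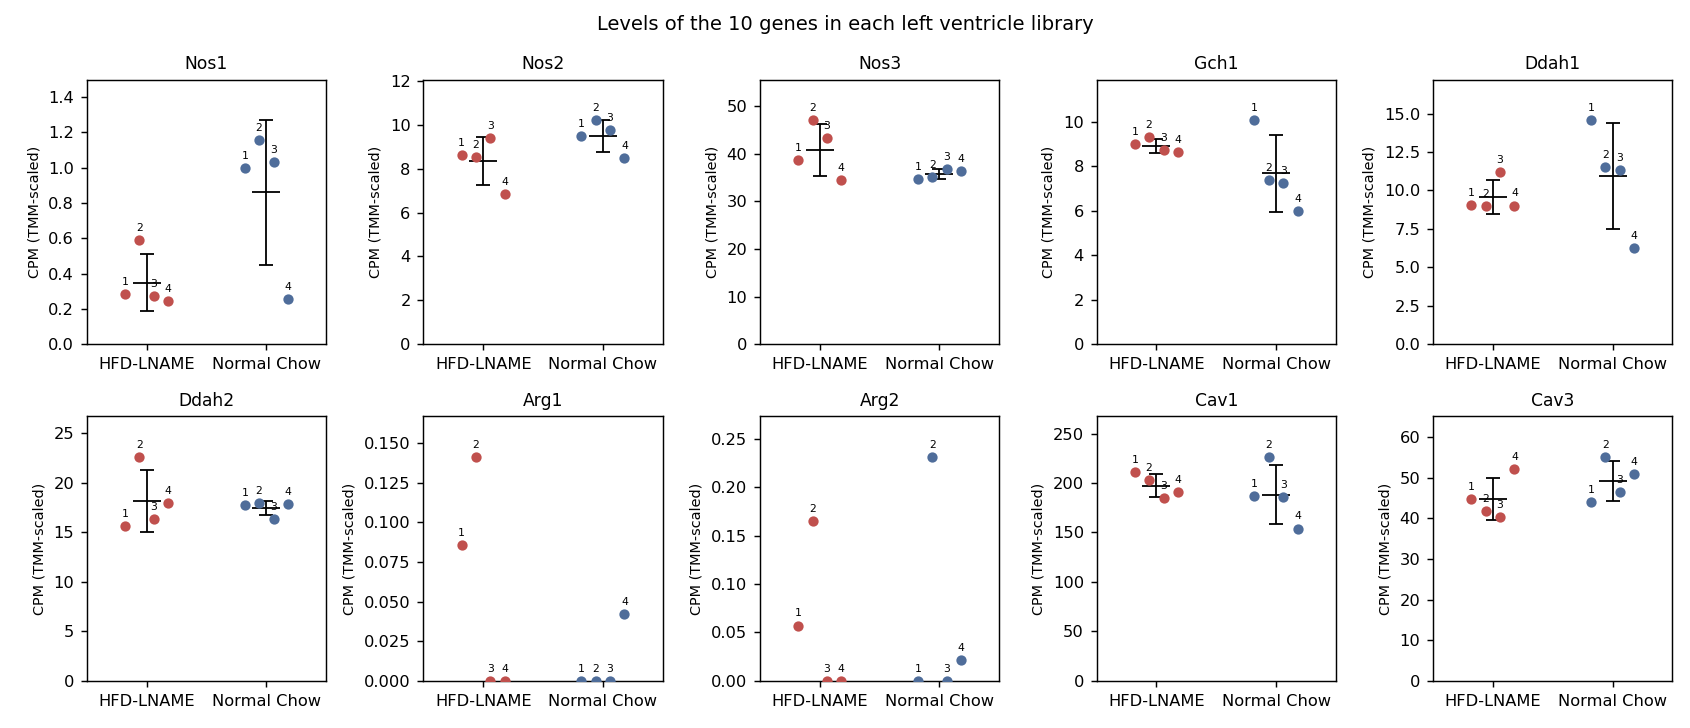
CPM of each of the 10 genes in the 4 HFD-LNAME libraries (left) and the 4 Normal Chow libraries (right), numbered by replicate, with the mean and SD as black bars except for Arg1 and Arg2. The groups overlap for all 10 genes, Nos1 is at 0.246 to 0.589 CPM in HFD-LNAME and at 0.997 to 1.16 CPM in 3 Normal Chow libraries with Normal Chow 4 at 0.254 CPM.

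Among the synthases, Nos3 carried most of the transcripts. It had 38.7, 47.0, 43.2 and 34.4 CPM in HFD-LNAME 1 to 4 and 34.7, 35.1, 36.8 and 36.4 CPM in Normal Chow 1 to 4. HFD-LNAME 4 was below every chow library and the other 3 were above all of them. Its log2 fold change was 0.19 ± 0.10 (SE; 95% interval -0.03 to 0.41; edgeR adjusted p = 0.578). Within-group spread was 13.4% of the mean in HFD-LNAME and 2.80% in Normal Chow. In bulk tissue, fewer cells of a type and less RNA per cell cannot be told apart. Endothelial markers, 12 genes summed, ranged from 1094 to 1492 CPM in HFD-LNAME and from 1093 to 1208 CPM in Normal Chow, and all 12 were detected. Of these, 2 (Pecam1, and Egfl7 without overlap) were higher at an unadjusted edgeR p under 0.05, against 5.02% of all genes. Groups did not overlap in this direction for 2.74% of all genes. Vwf, a part of the sum, varied widely, at 158 ± 93.5 CPM in HFD-LNAME and 174 ± 73.6 CPM in Normal Chow (SD, n = 4 each). Its log2 fold change was -0.14 ± 0.38 (SE), while the other endothelial markers lay above 0. The sum behind the Nos3 and Cav1 ratios carries this spread of Vwf. Set against that sum, Nos3 stood at 33.42, 31.52, 34.24 and 31.42 per 1000 CPM of endothelial markers in HFD-LNAME and at 28.7, 31.6, 32.3 and 33.3 in Normal Chow (log2 difference 0.05, exact permutation p = 0.371, n = 4 each, adjusted p = 0.743 over 8 ratios). With a score of these markers as a covariate the log2 fold change of Nos3 was 0.05 (edgeR adjusted p = 0.934). That score itself correlated with group (0.54), so the fit cannot fully part the score from the group. Without HFD-LNAME 2 and 3, the libraries with the highest Ucp1 counts, the log2 fold change of Nos3 was 0.03 (0.963). These libraries were also the highest in Nos3, so leaving them out lowers the value by itself. Without single libraries the log2 fold change of Nos3 ran from 0.12 (without HFD-LNAME 2, 0.820) to 0.27 (without HFD-LNAME 4, 0.346). On the mouse reference annotation exons of Nos3 (4132 bases) overlap those of Atg9b and Gm15587 on the opposite strand. The overlap comes to 1334 bases summed over these genes, and reads there cannot be told apart without strand. Atg9b averaged 1.19 CPM in HFD-LNAME and 1.29 CPM in Normal Chow.

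Nos2 was measurable in each library, although it is usually described as an induced gene. Its levels were 8.64, 8.52, 9.40 and 6.84 CPM in HFD-LNAME and 9.48, 10.2, 9.76 and 8.51 CPM in Normal Chow. HFD-LNAME 4 was the lowest library and the other 3 HFD-LNAME libraries lay within the chow range, and the log2 fold change was -0.19 ± 0.14 (SE; 95% interval -0.49 to 0.12; edgeR adjusted p = 0.720). Macrophage markers, 8 genes summed for cells that can express Nos2 when activated, ranged from 153 to 225 CPM in HFD-LNAME and from 126 to 233 CPM in Normal Chow. Of the 8, 0 had an unadjusted edgeR p under 0.05, against 9.56% of all genes.

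A ratio of Nos3 to Nos2, chosen after its values were seen, separated the groups although neither gene did. Nos3 counts per Nos2 count were 4.48, 5.52, 4.59 and 5.03 in HFD-LNAME and 3.66, 3.43, 3.77 and 4.27 in Normal Chow, so all 4 HFD-LNAME libraries lay above all 4 chow libraries. The log2 difference was 0.37 (two-sided exact permutation p = 0.0286, n = 4 each, the smallest the design allows; adjusted p = 0.129 over 9 ratios). Because of that choice the separation was known before the test, and the ratio did not pass the adjustment. The adjustment does not count other pairs of genes that could have been chosen. Expressed per length, Nos3 made up 83.7 ± 1.19% of the summed synthase level in HFD-LNAME and 79.5 ± 1.70% in Normal Chow (SD, n = 4 each), Nos2 16.1 ± 1.27% and 19.8 ± 1.37%, and Nos1 0.259 ± 0.0914% and 0.706 ± 0.335%. The shares of Nos3 ran from 77.8% to 85.2% over all libraries. They may include reads of the genes that overlap Nos3, as the strand setting was not given.

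Nos1 was the least abundant synthase and, of the 8 tested genes, the one whose fitted difference was farthest from 0. It had 10, 25, 9 and 9 counts in HFD-LNAME 1 to 4, or 0.286, 0.589, 0.273 and 0.246 CPM. In Normal Chow 1 to 4 it had 53, 60, 43 and 12 counts, or 0.997, 1.16, 1.03 and 0.254 CPM. Normal Chow 1, 2 and 3 stood above every HFD-LNAME library, and Normal Chow 4 stood among the low ones. In edgeR the log2 fold change was -1.29 ± 0.60 (SE; 95% interval -2.60 to 0.02; adjusted p = 0.539), with an unadjusted value of 0.0538. DESeq2 gave an unadjusted value of 0.0395 and an adjusted p of 0.440. Pooled counts were 53 in HFD-LNAME and 168 in Normal Chow, a rate ratio of 0.418 with an exact Poisson interval from 0.301 to 0.573 that covers counting error only. Without single libraries the log2 fold change ran from -1.67 (without HFD-LNAME 2, edgeR adjusted p = 0.602) to -1.11 (without Normal Chow 2, 0.682). It was -1.59 without Normal Chow 4 (0.502). Per 1000 CPM of summed cardiomyocyte markers, Nos1 stood at 0.00288, 0.00726, 0.00355 and 0.00272 in HFD-LNAME and at 0.0114, 0.0122, 0.0111 and 0.00245 in Normal Chow (log2 difference -1.06, exact permutation p = 0.143, n = 4 each, adjusted p = 0.533 over 8 ratios). Exons of Nos1 overlap those of the non-coding gene Gm26995 on the opposite strand.

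**Figure D3:**
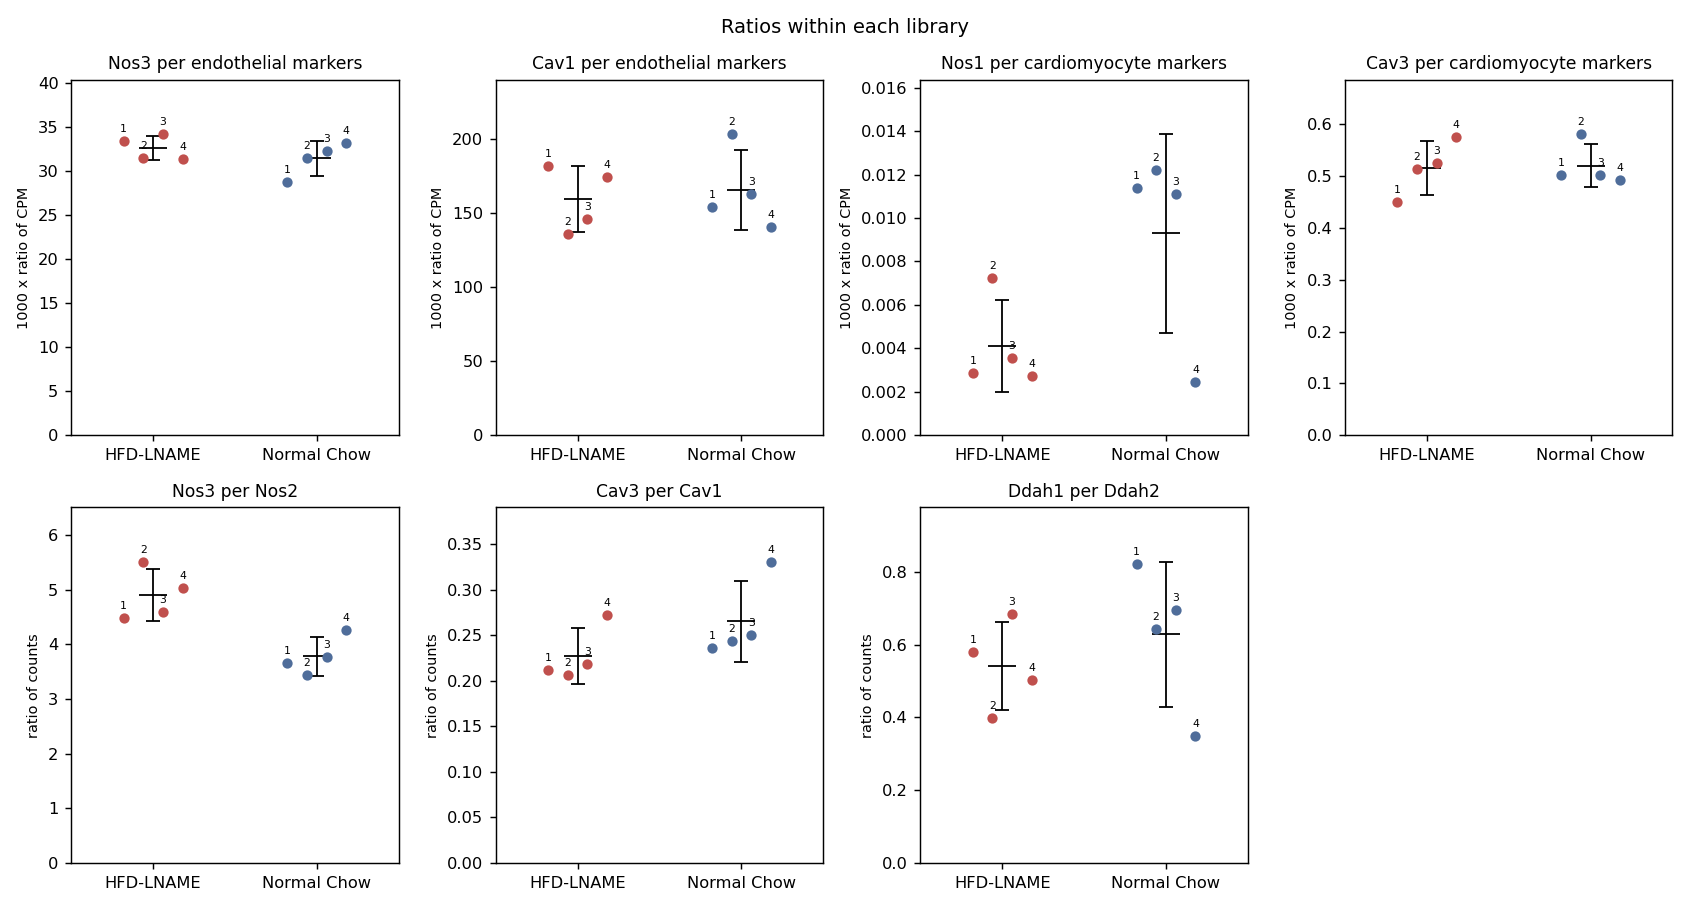
Ratios within each library, HFD-LNAME left and Normal Chow right, numbered by replicate, with mean and SD as black bars; marker ratios are CPM of the gene per 1000 CPM of the summed markers. Of the 7 ratios shown, Nos3 per Nos2, chosen after its values were seen, separates the groups (4.48 to 5.52 in HFD-LNAME, 3.43 to 4.27 in Normal Chow). The others overlap.

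Tetrahydrobiopterin, the cofactor without which synthases release superoxide in place of nitric oxide, is made from GTP by the enzymes of Gch1, Pts and Spr. Gch1, which encodes GTP cyclohydrolase 1 of the first and rate-limiting step, had 9.01, 9.33, 8.73 and 8.64 CPM in HFD-LNAME and 10.1, 7.41, 7.25 and 5.99 CPM in Normal Chow. The 4 HFD-LNAME libraries lay close together inside the wider range of chow, with a spread of 3.45% of the mean against 22.4%. For Gch1 the log2 fold change was 0.22 ± 0.17 (SE; 95% interval -0.15 to 0.58; edgeR adjusted p = 0.726). It was 0.38 without Normal Chow 1 and 0.11 without Normal Chow 4.

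Gchfr encodes the feedback regulatory protein that binds GTP cyclohydrolase 1 and lowers its activity when tetrahydrobiopterin is plentiful. It had 2.49, 1.84, 2.61 and 2.05 CPM in HFD-LNAME and 5.08, 3.57, 3.40 and 4.85 CPM in Normal Chow. All 4 HFD-LNAME libraries were below all 4 chow libraries, as was the case for 3.24% of all genes tested. In edgeR Gchfr had a log2 fold change of -0.91 ± 0.24 (SE; 95% interval -1.43 to -0.39), with an edgeR p of 0.00260 and an adjusted p of 0.255, so Gchfr did not pass. DESeq2 called it (adjusted p = 0.0389), limma-voom did not (0.282), and the authors' deposited table lists it at a log2 fold change of -0.91 with an adjusted p of 0.0590. Without single libraries the edgeR log2 fold change ran from -1.002 to -0.8107, and it was -0.89 without HFD-LNAME 2 and 3. On the reference annotation its exons overlap no other gene.

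Counts of Gch1 per count of Gchfr were 3.62, 5.08, 3.35 and 4.21 in HFD-LNAME and 1.99, 2.08, 2.13 and 1.24 in Normal Chow. Each HFD-LNAME library was above each chow library. The means were 4.06 ± 0.765 in HFD-LNAME and 1.86 ± 0.419 in Normal Chow (SD, n = 4 each), a log2 difference of 1.14 (two-sided exact permutation p = 0.0286, the smallest the design allows; adjusted p = 0.229 over 8 ratios). A ratio within a library does not depend on how libraries are scaled. Gchfr alone already separated the groups (edgeR log2 fold change -0.91), while Gch1 overlapped (0.22). The separation of the ratio therefore largely restates that of Gchfr and is no independent support for it.

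**Figure D4:**
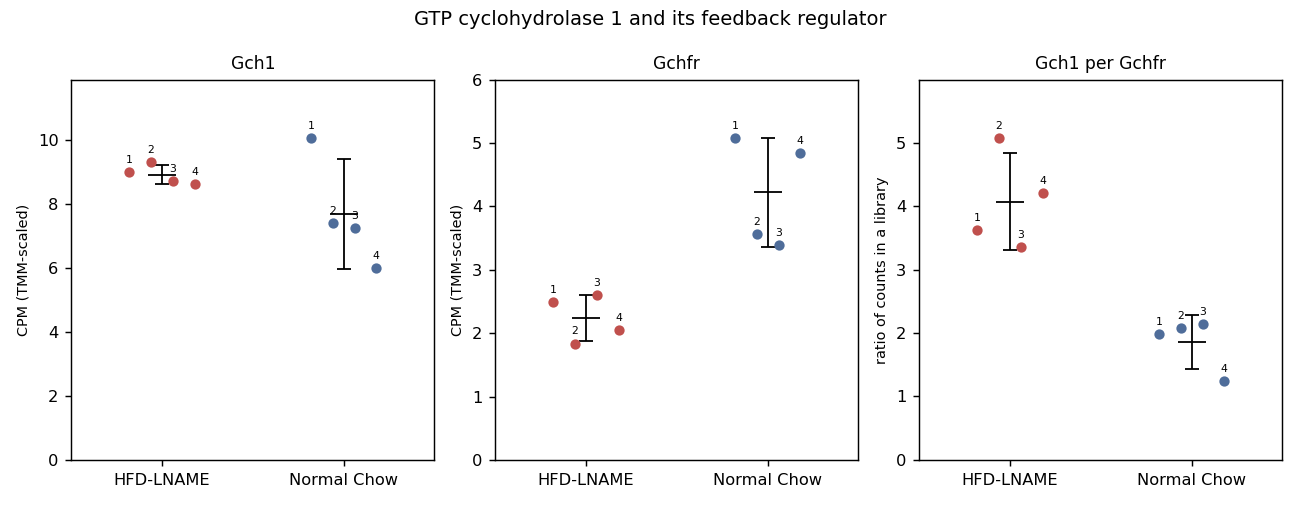
CPM of Gch1 and of its feedback regulator Gchfr, and counts of Gch1 per count of Gchfr, in HFD-LNAME (left) and Normal Chow (right) libraries numbered by replicate, with mean and SD as black bars. Gch1 overlaps between the groups, while Gchfr lies at 1.84 to 2.61 CPM in HFD-LNAME and 3.40 to 5.08 CPM in Normal Chow, and the ratio separates the groups the other way.

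The list of other genes around the cofactor holds 7, Gchfr included, which make or recycle it or regulate its synthesis. All were tested, edgeR and limma-voom called 0, DESeq2 called 1 (Gchfr), 1 had a log2 fold change above 0 and 6 below, where 50.5% of all genes lay above, and the median was -0.16. At an unadjusted edgeR p under 0.05 there were 0 higher and 1 lower, against 5.02% and 4.54% of all genes. Spr, sepiapterin reductase of the last step of synthesis, averaged 58.9 ± 5.42 CPM in HFD-LNAME and 66.7 ± 5.74 CPM in Normal Chow (SD, n = 4 each), and its difference on the log2 scale was -0.18 ± 0.09 (SE, edgeR adjusted p = 0.563). Qdpr, which recycles the oxidised cofactor, averaged 61.4 ± 6.86 CPM in HFD-LNAME and 68.8 ± 3.26 CPM in Normal Chow (-0.16 ± 0.09, adjusted p = 0.603), and without HFD-LNAME 2 and 3 its log2 fold change was -0.05.

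Ddah1 and Ddah2 encode hydrolases of asymmetric dimethylarginine, the natural synthase inhibitor that is set free when methylated proteins are broken down. Ddah1 had 9.04, 9.00, 11.2 and 9.02 CPM in HFD-LNAME and 14.6, 11.5, 11.4 and 6.24 CPM in Normal Chow. The 4 HFD-LNAME libraries were below 3 of the chow libraries and above Normal Chow 4. For Ddah1 the log2 fold change was -0.19 ± 0.22 (SE; 95% interval -0.67 to 0.28; edgeR adjusted p = 0.828). The value moved with single chow libraries: it was -0.39 without Normal Chow 4 (adjusted p = 0.545) and -0.02 without Normal Chow 1 (0.988). Ddah2 had 15.58, 22.61, 16.37 and 17.96 CPM in HFD-LNAME and 17.72, 17.90, 16.32 and 17.84 CPM in Normal Chow. HFD-LNAME 2 was the one library apart from the rest. The log2 fold change was 0.06 ± 0.12 (SE; 95% interval -0.22 to 0.33; edgeR adjusted p = 0.928), and without HFD-LNAME 2 it was -0.07. Counts of Ddah1 per count of Ddah2 were 0.580, 0.398, 0.685 and 0.502 in HFD-LNAME and 0.823, 0.644, 0.697 and 0.350 in Normal Chow (log2 difference -0.18, exact permutation p = 0.600, n = 4 each, adjusted p = 0.960 over 8 ratios).

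Enzymes that make methylarginines, with the enzyme Agxt2 that can also remove them, gave 7 tested genes of 10 listed. The edgeR test, DESeq2 and limma-voom called 0, with 0 at an unadjusted edgeR p under 0.05 (against 9.56% of all genes), 3 above 0 and 4 below (50.5% of all genes above), and a median log2 fold change of -0.05. Prmt5, which makes symmetric dimethylarginine, averaged 38.1 ± 4.87 CPM in HFD-LNAME and 43.6 ± 2.11 CPM in Normal Chow (SD, n = 4 each), and its difference on the log2 scale was -0.20 ± 0.10 (SE, edgeR adjusted p = 0.558). Carm1, an asymmetric arginine methyltransferase, had 56.7 to 61.7 CPM in HFD-LNAME and 61.9 to 74.9 CPM in Normal Chow, without overlap (-0.16 ± 0.08, adjusted p = 0.558), and shares exon sequence with Yipf2 on the other strand. Prmt9 had a log2 fold change of 0.18 ± 0.11 (adjusted p = 0.654).

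The arginases, which compete with synthases for arginine, were near the limit of detection. Arg1, the cytosolic form of liver and of some macrophages, had 3, 6, 0 and 0 counts in HFD-LNAME 1 to 4 and 0, 0, 0 and 2 counts in Normal Chow 1 to 4. Arg2, the mitochondrial form, had 2, 7, 0 and 0 counts in HFD-LNAME and 0, 12, 0 and 1 counts in Normal Chow. A count of 0 allows up to 0.0576 CPM in the deepest library and 0.0952 CPM in the shallowest, taking 3 counts as the limit. Pooled, Arg1 had 9 counts in HFD-LNAME and 2 in Normal Chow, a rate ratio of 5.97 with an exact Poisson interval from 1.24 to 56.7, and Arg2 had 9 and 13, a ratio of 0.918 (0.346 to 2.32). These intervals cover counting error only, and all 9 of the HFD-LNAME counts of each gene came from HFD-LNAME 1 and 2. Both genes fell short of the low-count filter. Tested without that filter, edgeR gave adjusted p = 0.729 for Arg1 and 0.988 for Arg2. Per 1000 CPM of summed cardiomyocyte markers, Arg2 stood at 5.76e-04, 0.00203, 0 and 0 in HFD-LNAME and at 0, 0.00244, 0 and 2.04e-04 in Normal Chow, compared on the linear scale because of the zeros (exact permutation p = 1, n = 4 each, adjusted p = 1 over 8 ratios). Exons of Arg2 overlap those of Vti1b and Gm48780 on the opposite strand.

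Transport and use of arginine were represented by 12 other genes, 11 of them tested. The edgeR test, DESeq2 and limma-voom called 0, edgeR gave 1 higher and 0 lower at an unadjusted p under 0.05 (9.09% and 0%, against 5.02% and 4.54% of all genes), 9 lay above 0 and 2 below, against 50.5% of all genes above, and the median log2 fold change was 0.10. Slc3a2, the heavy chain shared by several amino acid transporters, had 52.8, 44.0, 39.9 and 40.4 CPM in HFD-LNAME and 28.5, 38.9, 36.7 and 40.3 CPM in Normal Chow (log2 fold change 0.30 ± 0.13, edgeR adjusted p = 0.490). Asl, which frees arginine from argininosuccinate on the path that recycles citrulline, had 3.46 to 4.97 CPM in HFD-LNAME and 4.98 to 6.00 CPM in Normal Chow, without overlap by a narrow margin (-0.37 ± 0.18, adjusted p = 0.550). Of all genes, 3.24% were lower without overlap, as Asl was. Slc7a7, a light chain that exports cationic amino acids, had 2.69, 8.38, 7.76 and 5.69 CPM in HFD-LNAME and 5.25, 2.39, 5.62 and 1.88 CPM in Normal Chow. Its 3 lowest libraries, HFD-LNAME 1 and Normal Chow 2 and 4, are the 3 with low atrial markers. The log2 fold change of Slc7a7 was 0.70 ± 0.41 (adjusted p = 0.628). It was 0.34 with an atrial score as a covariate, 0.12 with the endothelial score and 0.15 without HFD-LNAME 2 and 3. Without single libraries it ran from 0.47 to 0.95. The part of atrial or endothelial transcripts in Slc7a7 was not tested. Exons of Slc7a7 overlap those of Oxa1l on the opposite strand. Ass1, the partner of Asl, had a log2 fold change of 0.00094 ± 0.32, and Slc7a1, the main cationic amino acid importer, one of -0.27 ± 0.21. Both of these were named after their values were seen.

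Caveolins form the coat of caveolae, where Cav1 in endothelium and Cav3 in muscle bind synthases and hold their activity low. Cav1 had 211.2, 202.7, 184.5 and 191.1 CPM in HFD-LNAME and 186.7, 226.5, 185.5 and 154 CPM in Normal Chow. The chow range enclosed all HFD-LNAME libraries. The log2 fold change was 0.07 ± 0.11 (SE; 95% interval -0.17 to 0.31; edgeR adjusted p = 0.888), and -0.02 without Normal Chow 4. Cav3 had 44.7, 41.8, 40.4 and 52.2 CPM in HFD-LNAME and 44.1, 55.1, 46.5 and 51.0 CPM in Normal Chow. HFD-LNAME 2 and 3 were below the chow range and the other HFD-LNAME libraries lay within it. The log2 fold change was -0.14 ± 0.10 (SE; 95% interval -0.36 to 0.09; edgeR adjusted p = 0.721), and -0.02 without HFD-LNAME 2 and 3.

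Set against markers of their cells, both caveolins had overlapping groups. Per 1000 CPM of summed endothelial markers Cav1 stood at 160 ± 22.2 in HFD-LNAME and 165 ± 27.0 in Normal Chow (SD, n = 4 each; exact permutation p = 0.771, adjusted p = 1 over 8 ratios). Per 1000 CPM of summed cardiomyocyte markers Cav3 stood at 0.517 ± 0.0518 in HFD-LNAME and 0.520 ± 0.0414 in Normal Chow (SD, n = 4 each; exact permutation p = 0.971, adjusted p = 1). Counts of Cav3 per count of Cav1 were 0.212, 0.206, 0.219 and 0.273 in HFD-LNAME and 0.236, 0.243, 0.251 and 0.331 in Normal Chow (log2 difference -0.22, exact permutation p = 0.200, n = 4 each, adjusted p = 0.533). The other 8 coat genes of caveolae were all tested, with 0 called by edgeR, DESeq2 or limma-voom, 0 at an unadjusted edgeR p under 0.05 (against 9.56% of all genes), 5 above 0 and 3 below (50.5% of all genes above), and a median log2 fold change of 0.01. Cavin4, the muscle cavin, averaged 155 ± 8.55 CPM in HFD-LNAME and 138 ± 11.2 CPM in Normal Chow (SD, n = 4 each), and its difference on the log2 scale was 0.16 ± 0.08 (SE, edgeR adjusted p = 0.557). The membrane-bending ATPase gene Ehd2 had a log2 fold change of 0.24 ± 0.13 (adjusted p = 0.587) and Pacsin2 one of -0.11 ± 0.09 (0.719).

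Proteins that bind or place the synthases were tested as 12 of 13 listed genes. The edgeR test, DESeq2 and limma-voom called 0, edgeR gave 2 higher and 0 lower at an unadjusted p under 0.05 (16.7% and 0%, against 5.02% and 4.54% of all genes), 8 lay above 0 and 4 below, against 50.5% of all genes above, and the median log2 fold change was 0.03. Dynll1, the dynein light chain first described as an inhibitor of the neuronal synthase, had 13.4, 14.7, 14.6 and 15.4 CPM in HFD-LNAME and 12.8, 12.1, 12.2 and 11.4 CPM in Normal Chow. All 4 HFD-LNAME libraries were higher than all 4 chow libraries, as in 2.74% of all genes (log2 fold change 0.26 ± 0.10, edgeR adjusted p = 0.462). Dmd encodes dystrophin, whose membrane complex anchors the neuronal synthase in muscle. It averaged 188 ± 25.8 CPM in HFD-LNAME and 165 ± 7.17 CPM in Normal Chow (SD, n = 4 each; 0.19 ± 0.10, edgeR adjusted p = 0.574).

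Downstream, nitric oxide acts on soluble guanylyl cyclase, whose alpha and beta subunits are encoded by Gucy1a1, Gucy1a2 and Gucy1b1, and is removed by globins and reductases. Of 8 genes tested, edgeR, DESeq2 and limma-voom called 0, edgeR gave 1 higher and 0 lower at an unadjusted p under 0.05 (12.5% and 0%, against 5.02% and 4.54% of all genes), 4 lay above 0 and 4 below, and the median log2 fold change was 0.16. Gucy1a2 had 2.09, 1.88, 2.58 and 0.902 CPM in HFD-LNAME and 0.922, 1.39, 0.622 and 0.614 CPM in Normal Chow. HFD-LNAME 1, 2 and 3 were above all chow libraries and HFD-LNAME 4 lay within the chow range (log2 fold change 1.06 ± 0.44, edgeR adjusted p = 0.473). Gucy1a1 had 17.38, 25.74, 28.26 and 18.15 CPM in HFD-LNAME and 19.99, 17.86, 17.13 and 15.71 CPM in Normal Chow (0.34 ± 0.16, adjusted p = 0.542), and its log2 fold change was 0.01 without HFD-LNAME 2 and 3. Gucy1b1 averaged 22.9 ± 2.50 CPM in HFD-LNAME and 18.1 ± 5.31 CPM in Normal Chow (SD, n = 4 each; 0.33 ± 0.18, adjusted p = 0.604). Smooth muscle cells and pericytes use the cyclase. Of their 8 summed markers, 4 (Cnn1, Lmod1, and Myh11 and Tagln without overlap) were higher at an unadjusted edgeR p under 0.05, against 5.02% of all genes. Groups did not overlap in this direction for 2.74% of all genes. The marker sums were 1010 to 1185 CPM in HFD-LNAME and 816 to 991 CPM in Normal Chow. The part of these cells in the cyclase values was not tested.

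Over all 6 lists, 53 of 58 genes were tested. With edgeR 0 passed, limma-voom called 0 and DESeq2 1. At an unadjusted edgeR p under 0.05, 7.55% were higher and 1.89% lower, against 5.02% and 4.54% of all genes. Groups did not overlap in 1 gene that was higher (1.89%, against 2.74% of all genes) and in 3 that were lower (Gchfr, Asl and Carm1, 5.66%, against 3.24%).

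**Figure D5:**
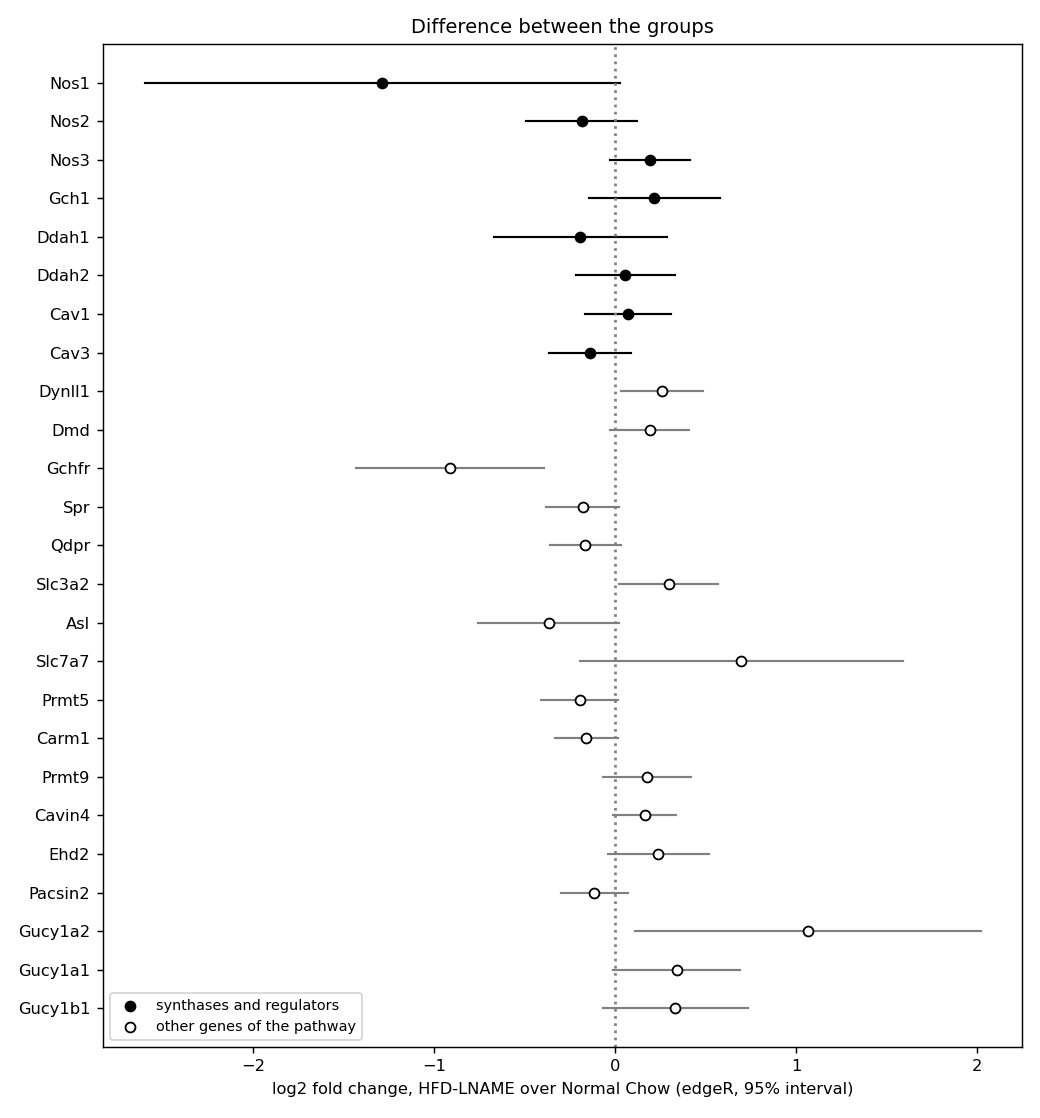
Log2 fold change of HFD-LNAME over Normal Chow with its 95% interval from edgeR, for the 8 tested synthases and regulators (filled) and for the genes of smallest p in each pathway list that the text names (open). The intervals of all 8 filled points include 0, and the interval of Gchfr runs from -1.43 to -0.39.

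The authors' deposited table gives the same direction for each of the 8 members. In the authors' deposited table the log2 fold changes are -1.29 for Nos1 (adjusted p = 0.480), 0.19 for Nos3 (0.613), -0.18 for Nos2 (0.805) and 0.22 for Gch1 (0.796). The authors' deposited table lists no adjusted p for Arg1 and Arg2.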

How the data were processed

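Left ventricular RNA was sequenced in 8 libraries, 4 per group. The authors deposited raw counts per gene and a table of log2 fold changes with p-values and adjusted p-values. Tools named in the submitters' processing notes are STAR 2.6, DESeq2 1.22.1, Trim Galore 0.4.0 and bcl2fastq 1.8.4. The notes name a human build while rows carry C57BL/6NJ mouse identifiers, so no coordinates are given. For the counting step, tool and strand setting were not given in the sources used here. Columns were matched through the number in brackets in each title. Numbers of replicates follow accession order and pair nothing. Nothing else says that libraries of a group came from separate mice, so p-values measure the spread between these libraries, which may be technical. Gene names come from the authors' deposited table, and 6 genes of the pathway lists were matched through RefSeq synonyms, with 56 of 58 found. The 8 per-sample columns of normalised values were not used. Rows without a name held 9.19% to 10.5% of a library's counts and were kept.

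Counts were tested across the whole table with edgeR 4.0.16 under R 4.3.3 (TMM factors, quasi-likelihood fit, filterByExpr with a minimum count of 10, Benjamini-Hochberg adjustment, threshold 0.05), with DESeq2 1.42.0 and limma-voom (limma 3.58.1) as alternatives. TMM-scaled totals give CPM. A standard error (SE) was taken as the fold change on the log2 scale over the root of F, and intervals are at 95%. For ratios the exact permutation test was two-sided, over 70 arrangements. The ratio of Arg2 to cardiomyocyte markers was compared on the linear scale, as 4 libraries hold no Arg2 count. The others are on the log2 scale, and p-values were adjusted over 8 ratios, or 9 with Nos3 per Nos2. Only the edgeR fit, without the low-count filter, was tried on simulated counts, drawn with the dispersions of these data. The ratios, DESeq2 and limma-voom were not tried in this way. Libraries of a group differed by more than sampling noise (chi-square per degree of freedom 26.8 to 69.4). All 10 genes are named, with up to 3 genes of smallest p per pathway list, of which 1 is not reported here. The members and lists were chosen with earlier results of these data known.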

Additional observations from a re-analysis of the deposited data

Results flagged for a closer look

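In groups of 4 libraries, 38 sets of values were searched for a library far from the other 3, and 10 were found. Chance gives about 1 in 20 for independent values, but the ratios reuse genes that are also counted alone, and sets that are mostly zeros pass by construction, so the share found cannot be set against it. Nos1 in HFD-LNAME 2 was at 0.589 CPM, far above the other HFD-LNAME libraries. Ddah1 in HFD-LNAME 3 was at 11.2 CPM, where the other 3 lay between 9.00 and 9.04 CPM. Ddah2 in Normal Chow 3 was at 16.3 CPM, below the other chow libraries at 17.7 to 17.9 CPM. Normal Chow 4 held the only Arg1 counts of its group (0.0423 CPM), and Normal Chow 2 held most Arg2 counts of its group (0.231 CPM, or 0.00244 per 1000 CPM of cardiomyocyte markers), the other libraries being at or near 0.

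Among the ratios, Normal Chow 4 stood apart in 3. Its Nos1 per 1000 CPM of cardiomyocyte markers was 0.00245, far below the other chow libraries. Its Cav3 per Cav1 was 0.331, above them, and its Gch1 per Gchfr was 1.24, below them. Normal Chow 2 had the highest Cav3 per 1000 CPM of cardiomyocyte markers (0.582).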

How the results depend on the processing

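Of the synthases and regulators 0 were called under every alternative run, including an adjusted p under 0.1. Over 151 pairs of a tested member and a setting, the lowest adjusted p was 0.346 (Nos3 without HFD-LNAME 4 in edgeR). Of these pairs 147 kept their direction. The other 4 were Ddah2 without HFD-LNAME 2 (-0.06644), without HFD-LNAME 2 and 3 (-0.05377) and with the endothelial score (-0.0792), and Cav1 without Normal Chow 4 (-0.01577). Without single libraries the log2 fold change of Ddah2 ran from -0.06644 to 0.1258 and that of Cav1 from -0.01577 to 0.1736. Pathway genes called numbered 0, except 1 (Gchfr) with DESeq2, and 0 in each fit without 1 library. For the 18 pathway genes taken as the 3 of smallest p in each list, 0 of 342 pairs turned direction. These genes were picked by p in the same data, so a kept direction is no independent support. Over all genes tested, edgeR called 2, and 165 with DESeq2, 34 without a low-count filter, 1 with the robust fit, and 0 with limma-voom, without HFD-LNAME 2 and 3, with the endothelial or atrial score or after thinning each library to the lowest total. The thinning was chosen after seeing the data. Without single libraries the number called by edgeR ran from 0 (without HFD-LNAME 2 or 4, or Normal Chow 1, 2 or 4) to 3 (without Normal Chow 3), with 1 without HFD-LNAME 1. The cause of these changes was not tested. Cav3 per cardiomyocyte markers turned from a log2 difference of -0.01 to 0.002099 with the geometric mean of the markers, and the linear difference of Arg2 turned from -9.218e-06 to 1.694e-05. Without single libraries the log2 differences of Gch1 per Gchfr ran from 0.96 to 1.23, of Nos3 per Nos2 from 0.32 to 0.43 and of Nos1 per cardiomyocyte markers from -1.62 to -0.84. That of Arg2 per cardiomyocyte markers, on the linear scale, ran from -4.69e-04 to 5.84e-04. No test was run on ratios without a library. Depth limits the arginases and Nos1: Arg1 and Arg2 were tested when no filter was set, and Nos1 had no value under the filter on a mean of 1 CPM. No paired analysis was possible because the labels give no replicate numbers.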
